A study of Rattus norvegicus with 93 samples.

Results

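Genes of the response to interferon gamma were followed in the femur bone marrow of rats given topotecan, oxaliplatin or both: 8 of the 7810 genes that the array measures with a probe set of a single symbol. The 8 are the chemokines Cxcl9 and Cxcl10, the interferon-inducible GTPases Gbp2, Igtp and Irgm, the transcription factor Irf1, and Psmb8 and Psmb9, which encode catalytic subunits of the immunoproteasome. They were chosen by name, and for a gene with several probe sets the one with the brightest mean signal was taken. All 8 were represented, Cxcl9 and Igtp by 1 of 2 probe sets each.

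The animals were male Sprague-Dawley rats of 8 weeks, with a cannula in the femoral vein, and each received a pair of 30 min intravenous infusions, the second beginning 30 min after the first ended. The dose of topotecan, which traps topoisomerase I on DNA, was 4.7 mg/kg, and that of oxaliplatin, a platinum drug that forms DNA adducts, was 15 mg/kg. The vehicle of topotecan was saline (NaCl) and that of oxaliplatin was dextrose in water (D5W). Marrow was taken 1, 6 or 24 h after dosing was complete.

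The groups are named by the first and the second infusion. Both drugs were given in the groups topotecan/oxaliplatin and oxaliplatin/topotecan. A single drug was given first in topotecan/D5W and oxaliplatin/NaCl, and second in D5W/topotecan and NaCl/oxaliplatin. The vehicle groups were NaCl/D5W, which served topotecan/D5W, NaCl/oxaliplatin and topotecan/oxaliplatin, and D5W/NaCl, which served the other three. Each group held 4 rats at each time, apart from oxaliplatin/NaCl at 6 h and, at 24 h, topotecan/D5W and D5W/NaCl, which held 3. Since 3 treatments share each vehicle group, their differences from vehicle are not independent of each other, and their values are set side by side without an overlap test.

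Interferon gamma, made chiefly by T cells and natural killer cells, binds a receptor that activates the kinases JAK1 and JAK2. The signal reaches promoters at GAS sites and induces IRF1, which then acts with other IRF proteins at interferon-stimulated response elements. The targets include chemokines that draw CXCR3-bearing lymphocytes, GTPases that attack the vacuoles of intracellular microbes, and immunoproteasome subunits that replace the standard catalytic subunits and alter the peptides offered on MHC class I. Type I interferons and tumour necrosis factor induce many of the same genes, and in marrow, interferon gamma is known to act on blood stem cells and to restrain blood formation.

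Promoters of 6 of the genes are printed so that the letters shared by genes that moved together can be read beside the values. Each is the 250 bases before the gene's start in RefSeq, build GRCr8, written 5′ to 3′ on the strand of the gene. Capitals mark matches to 4 motifs searched on both strands: the core of an interferon-stimulated response element (ISRE), which is GAAA and GAAA with any 2 bases between them, TTCNNNGAA, the GAS core, which is its own reverse complement, the kB consensus bound by NF-kB, and TATAAA. The places are chr14:15988816-15989065, plus strand, for Cxcl10, chr2:234005477-234005726, plus strand, for Gbp2, chr10:42874797-42875046, plus strand, for Igtp, chr10:33742579-33742828, minus strand, for Irgm, chr10:38417685-38417934, plus strand, for Irf1, and chr20:4668750-4668999, plus strand, for Psmb9.
Cxcl10: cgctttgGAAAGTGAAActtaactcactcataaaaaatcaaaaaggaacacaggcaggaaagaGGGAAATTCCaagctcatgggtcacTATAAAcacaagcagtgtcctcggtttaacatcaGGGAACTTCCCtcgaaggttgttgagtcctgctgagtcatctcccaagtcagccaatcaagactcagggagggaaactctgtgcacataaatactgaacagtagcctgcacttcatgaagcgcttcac
Gbp2: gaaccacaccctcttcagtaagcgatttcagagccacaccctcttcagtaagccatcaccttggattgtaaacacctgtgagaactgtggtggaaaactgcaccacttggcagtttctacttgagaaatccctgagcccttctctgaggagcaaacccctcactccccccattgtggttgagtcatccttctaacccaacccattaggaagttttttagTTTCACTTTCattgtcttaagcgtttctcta
Igtp: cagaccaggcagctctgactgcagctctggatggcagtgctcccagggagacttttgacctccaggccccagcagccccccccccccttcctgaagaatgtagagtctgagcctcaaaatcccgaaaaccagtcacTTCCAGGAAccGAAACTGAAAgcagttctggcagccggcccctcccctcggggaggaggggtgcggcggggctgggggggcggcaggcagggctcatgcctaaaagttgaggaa
Irgm: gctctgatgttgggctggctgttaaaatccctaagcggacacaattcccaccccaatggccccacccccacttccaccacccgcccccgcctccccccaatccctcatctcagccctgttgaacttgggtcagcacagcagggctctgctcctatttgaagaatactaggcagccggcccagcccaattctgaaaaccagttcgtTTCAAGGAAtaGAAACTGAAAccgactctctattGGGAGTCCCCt
Irf1: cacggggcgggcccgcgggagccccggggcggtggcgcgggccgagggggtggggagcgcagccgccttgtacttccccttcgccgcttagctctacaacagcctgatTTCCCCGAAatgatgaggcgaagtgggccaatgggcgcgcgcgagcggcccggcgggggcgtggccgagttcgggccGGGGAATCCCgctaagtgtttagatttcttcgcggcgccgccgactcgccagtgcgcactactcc
Psmb9: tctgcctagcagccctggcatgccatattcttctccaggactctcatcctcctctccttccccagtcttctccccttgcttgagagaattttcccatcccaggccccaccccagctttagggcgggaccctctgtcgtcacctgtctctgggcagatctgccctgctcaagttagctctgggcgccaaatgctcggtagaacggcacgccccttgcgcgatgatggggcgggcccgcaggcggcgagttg

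In the promoter of Cxcl10, the ISRE core was matched 243 to 234 bases before the start and the kB consensus at 2 places, one of which also matched on the other strand 1 base away. Igtp and Irgm carried the same arrangement, a TTCNNNGAA followed 2 bases later by GAAACTGAAA, at 114 to 94 bases before the start of Igtp and 45 to 25 before that of Irgm. Gbp2 held the ISRE core on the opposite strand. Irf1 held TTCNNNGAA and a kB match that reads on both strands. Of all 8 genes, 4 held the ISRE core, against 3.41% of the 33469 rat promoters of this length. TTCNNNGAA was in 4 of 8 (7.67% of all promoters), the kB consensus in 3 of 8 (6.33%) and TATAAA in 1 of 8 (12.9%). Such matches describe letters and are not shown to be bound, and the promoters of Cxcl9 and Psmb9 had none in this window.

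Values are log2 signals from the RMA procedure, so a difference of 1 is a 2-fold change, and a group difference is called a rise or a fall where limma, fitted over all 12532 probe sets, gave a Benjamini-Hochberg adjusted p under 0.01. The array-wide signals ran from 3.94 to 15.40. Cxcl9 was dim, with 3.23% of probe sets below its mean, as was Cxcl10 with 8.44%. The other genes were brighter: Igtp stood above 24.9% of probe sets, Irgm above 49.7%, Gbp2 above 59.9%, Irf1 above 79.4%, Psmb9 above 90.7% and Psmb8 above 94.6%. Signals of different probe sets cannot be compared as amounts of RNA. Markers of marrow were strong in the vehicle rats, whose mean over 5 neutrophil genes was 13.73 to 13.98 and over 8 red cell precursor genes 12.68 to 13.07.

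One rat stood apart from the rest of the series and bears on many values below. Rat 92, of D5W/topotecan at 1 h, had a Cxcl10 signal of 11.26, against 6.48 to 6.70 in its 3 groupmates. All 8 genes were higher in it than in every groupmate, with a median difference of 2.29, the largest of the 93 rats, and 390 of its probe sets differed more than 2-fold from the groupmates' mean (median over rats 76). Its greatest differences were in Ccl2 (5.38), Cxcl1 (5.07) and Cxcl11 (4.83), chemokine genes. Rat 92 raised the common estimate of spread used for D5W/NaCl and the 3 treatments compared with it, at all times: without it the standard error of a Cxcl10 difference fell from 0.69 to 0.51. Results for those groups are therefore given with and without it. The next largest median differences from groupmates were 1.17 in rat 69 of oxaliplatin/topotecan at 6 h and 0.83 in rat 48 of oxaliplatin/NaCl at 24 h. By animal number, 5 of the 6 rats with a median difference over 0.5 were among the later 6 of the 12 numbers of their group over the 3 times, as were 47 of all 93 rats. The mean of 9 skeletal muscle markers was more than 2 above the median of all arrays in 3 arrays, rats 41 and 42 of oxaliplatin/NaCl at 24 h and rat 52 of topotecan/oxaliplatin at 6 h (8.88 to 9.96), and the highest value of any other group was 7.59.

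Across the 6 treatments, calls among the 8 genes grew in number from 1 to 24 h, and none was a fall, although 0.0239% to 35.2% of all probe sets fell in these comparisons. Of 48 pairs of a gene and a treatment at each time, 6 rose at 1 h, 17 at 6 h and 27 at 24 h. Irf1 was called most often, in 13 of 18 comparisons with vehicle, followed by Irgm in 9, Gbp2 in 8, Igtp in 7, Cxcl10 in 6, Psmb9 in 3, and Cxcl9 and Psmb8 in 2 each. These counts are read against the share of all probe sets that rose in the same comparison, given in parentheses. Topotecan/oxaliplatin at 24 h kept its 8 calls whichever rat was left out and with all 8 groups in 1 fit. Shares of all probe sets are not given for that fit, here or below, so its counts carry no reading about the 8 genes. With that fit, topotecan/D5W went from 2 to 0 calls at 1 h and 5 to 1 at 6 h, NaCl/oxaliplatin from 3 to 1 at 6 h and 7 to 4 at 24 h, and topotecan/oxaliplatin from 2 to 0 at 1 h, while D5W/topotecan went from 1 to 4 at 1 h, 0 to 1 at 6 h and 1 to 3 at 24 h, oxaliplatin/NaCl went from 1 to 5 and oxaliplatin/topotecan from 4 to 7 at 24 h.

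In topotecan/D5W 2 of 8 genes rose at 1 h, where 9.18% of all probe sets rose, 5 at 6 h (15.1%) and 6 at 24 h (16.1%). In NaCl/oxaliplatin none rose at 1 h, where 0.136% of probe sets did, while 3 rose at 6 h (5.54%) and 7 at 24 h (24.9%). With both drugs, in topotecan/oxaliplatin, 2 genes rose at 1 h (9.77%), 5 at 6 h (17%) and all 8 at 24 h (25.9%). In D5W/topotecan 1 gene rose at 1 h (7.67%), none at 6 h (14.1%) and 1 at 24 h (18.1%). Oxaliplatin/NaCl gave none at 1 h (0.575%), none at 6 h (3.78%) and 1 at 24 h (19.6%). Oxaliplatin/topotecan gave 1 at 1 h (7.21%), 4 at 6 h (14.2%) and 4 at 24 h (21.8%). For the 4 counts of 0, the genes with an unadjusted limma p under 0.05, in either direction, were counted beside the share of all probe sets. The number was 1 in NaCl/oxaliplatin at 1 h (14.4%) and 1 in D5W/topotecan at 6 h (52.5%). In oxaliplatin/NaCl it was 0 at 1 h (13%) and 1 at 6 h (34.1%). Limma with trend and robust estimation also called none.

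Without rat 92 the counts at 1, 6 and 24 h became 0, 1 and 3 in D5W/topotecan, 0, 0 and 4 in oxaliplatin/NaCl, and 1, 6 and 7 in oxaliplatin/topotecan. The share of all probe sets that rose was then 6.19%, 14.7% and 19.1% in D5W/topotecan, 0.702%, 4.08% and 20.3% in oxaliplatin/NaCl, and 7.51%, 14.7% and 22.3% in oxaliplatin/topotecan. The rat is of the 1 h group, so at 6 and 24 h it changed the error and not the differences themselves.

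**Figure D1:**
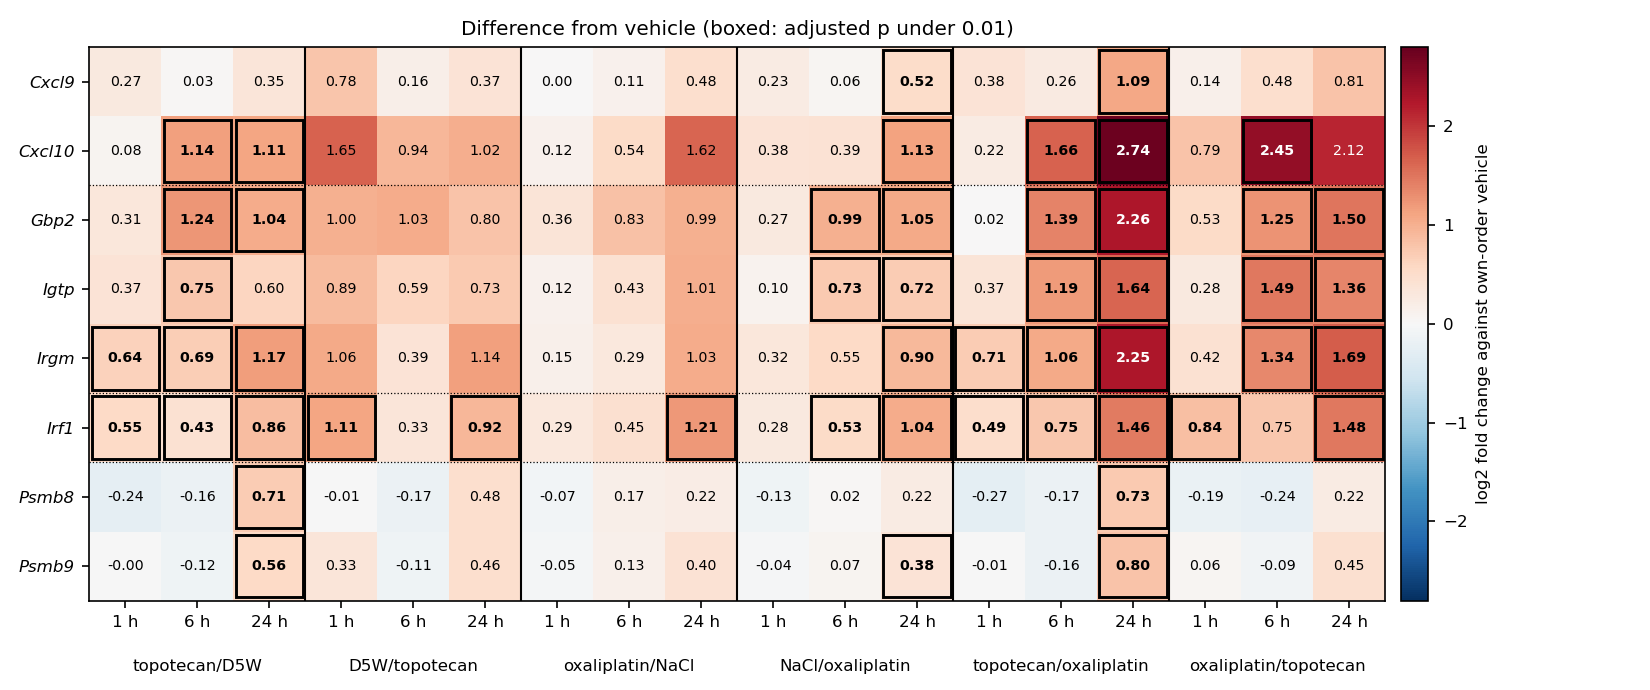
Log2 fold change of the 8 genes against the vehicle group of the same order, for 6 treatments at 1, 6 and 24 h, with boxes and bold print where the limma adjusted p was under 0.01. Topotecan/oxaliplatin at 24 h is boxed for all 8 genes, from 0.73 for Psmb8 to 2.74 for Cxcl10, and no fall is boxed.

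At 24 h the separation from vehicle was wider than the calls. In topotecan/D5W, D5W/topotecan and topotecan/oxaliplatin every treated rat lay above every vehicle rat for all 8 genes, which was so for 25.7%, 21.5% and 26.9% of probe sets. In oxaliplatin/NaCl, NaCl/oxaliplatin and oxaliplatin/topotecan it held for 7 of 8 genes, against 26.1%, 28.6% and 26.3% of probe sets, and Psmb8 was the exception each time. The median log2 difference of the 8 genes at 24 h was 0.78 in topotecan/D5W, 0.76 in D5W/topotecan, 1.00 in oxaliplatin/NaCl, 0.81 in NaCl/oxaliplatin, 1.55 in topotecan/oxaliplatin and 1.42 in oxaliplatin/topotecan. The median over all probe sets lay between -0.11 and 0.03 in these comparisons. Marrow is a mixture, so more cells that express a gene and more of its RNA per cell cannot be told apart in these values, nor can fewer cells of a type and less RNA per cell.

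**Figure D2:**
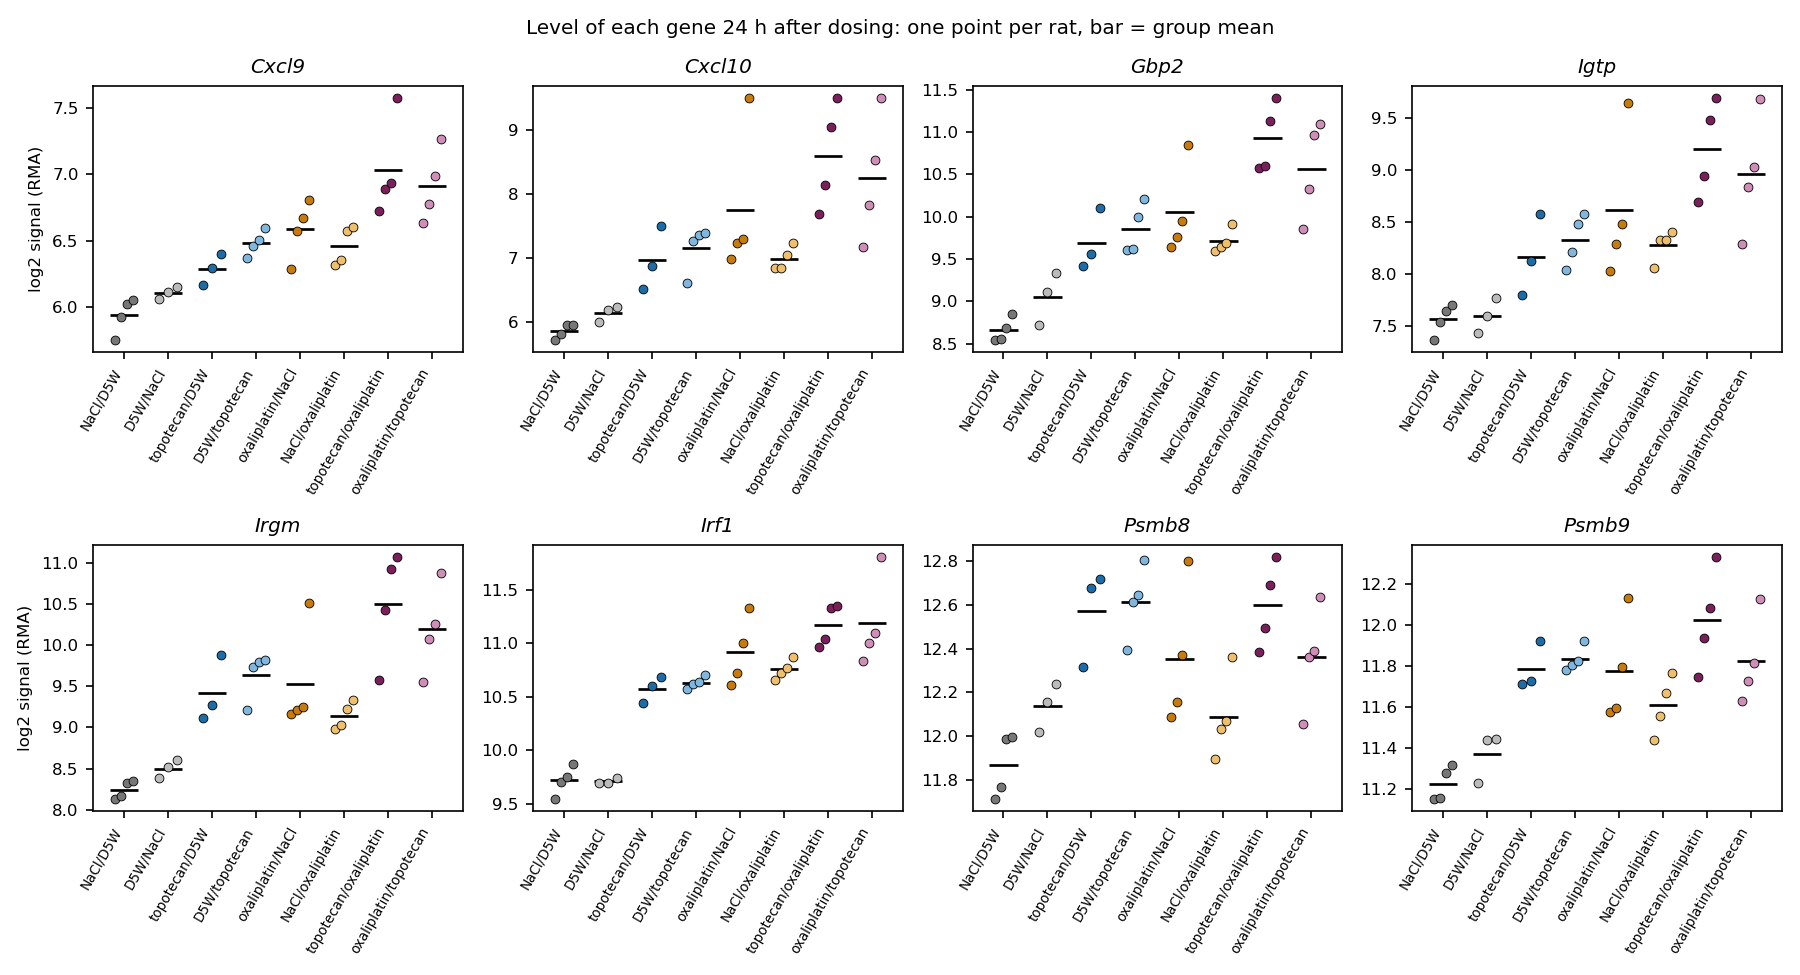
Log2 signal of each of the 8 genes 24 h after dosing, 1 point per rat and 1 column per group, with a bar at the group mean. Vehicle rats of both orders lie below the treated rats for 7 genes within each order, and for Psmb8 the oxaliplatin groups and oxaliplatin/topotecan reach into the vehicle range.

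Markers of the cell types of marrow moved at the same time. Their counts of calls are read beside the share of all probe sets called in the comparisons with vehicle. For rises that share was 0.136% to 9.77% at 1 h, 3.78% to 17% at 6 h and 16.1% to 25.9% at 24 h. For falls it was at most 35.2% in any of these comparisons. At 24 h the mean of 8 red cell precursor markers was 12.68 to 13.05 in vehicle rats and 9.60 to 11.47 in treated rats. In every treatment 7 of 8 markers fell, and at most 1 rose. The mean of 7 T cell markers was 7.29 to 7.63 against 8.13 to 9.34 (6 or 7 rose). That of 8 natural killer cell markers was 7.11 to 7.43 against 7.57 to 8.58 (5 or 6 rose, at most 1 fell). That of 11 monocyte and macrophage markers was 9.96 to 10.41 against 10.31 to 11.14 (6 to 10 rose, at most 1 fell). Markers of stroma moved from 9.74 to 10.17 in vehicle rats to 10.89 to 11.85 in treated rats, and those of endothelium from 8.57 to 8.94 to 9.05 to 10.30. The mean of 5 neutrophil markers was 13.80 to 13.98 against 12.89 to 13.95, with 0 to 2 markers rising and 0 to 2 falling in a treatment. That of 3 B cell markers was 10.12 to 10.60 against 10.17 to 11.58 (0 to 2 rose). Of 8 listed dendritic cell markers only 2, Itgax and Cd83, were measured. These 2 were already apart from vehicle in every treated rat at 6 h (10.12 to 10.89 against 9.36 to 9.76). At 1 h, when Irf1 had risen in 4 treatments, treated rats overlapped vehicle in these 2 markers (9.35 to 10.40 against 9.20 to 9.73). The group means were then 9.79 to 10.11 against 9.46 to 9.59. The lists of T cells, natural killer cells and neutrophils had no call at 1 h in any treatment. Each of the lists of B cells, monocytes and macrophages, endothelium and red cell precursors had at most 2 falls and at most 1 rise in a treatment at that time. At 6 h 3 to 5 of the T cell and 2 to 5 of the natural killer cell markers had risen. Their part in the rise of the 8 genes was not tested.

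Cxcl10, a ligand of the receptor CXCR3, gave the largest single difference from vehicle and the largest spread of the 8: its standard deviation within groups, 0.79, exceeded that of 99.5% of probe sets. At 24 h the NaCl/D5W rats had signals of 5.71, 5.81, 5.95 and 5.95. The topotecan/oxaliplatin rats had 7.69, 8.14, 9.06 and 9.50. Every treated rat was above every vehicle rat, and the difference was 2.74 ± 0.31 (SE, 4 against 4 rats), or 6.70-fold, with a limma adjusted p of 8.28e-10. Signals of the single drugs of the same order were 6.51, 6.87 and 7.51 after topotecan/D5W and 6.84, 6.84, 7.04 and 7.22 after NaCl/oxaliplatin, all above vehicle and below the lowest topotecan/oxaliplatin rat. The rises against vehicle were 1.11 ± 0.34 (adjusted p = 0.0074) and 1.13 ± 0.31 (adjusted p = 0.00195).

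In the other order, the D5W/NaCl rats had Cxcl10 signals of 5.99, 6.19 and 6.23 at 24 h and the oxaliplatin/topotecan rats 7.16, 7.83, 8.53 and 9.50. The groups did not overlap, yet the difference of 2.12 ± 0.74 had an adjusted p of 0.0123 and was not called, and it had 0.00108 without rat 92. After D5W/topotecan the signals were 6.61, 7.26, 7.36 and 7.40, a difference of 1.02 ± 0.74 (adjusted p = 0.26). After oxaliplatin/NaCl they were 6.98, 7.24, 7.30 and 9.51, the last from rat 48, a difference of 1.62 ± 0.74 (adjusted p = 0.0588). Neither single drug of this order was called for Cxcl10 with or without rat 92.

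**Figure D3:**
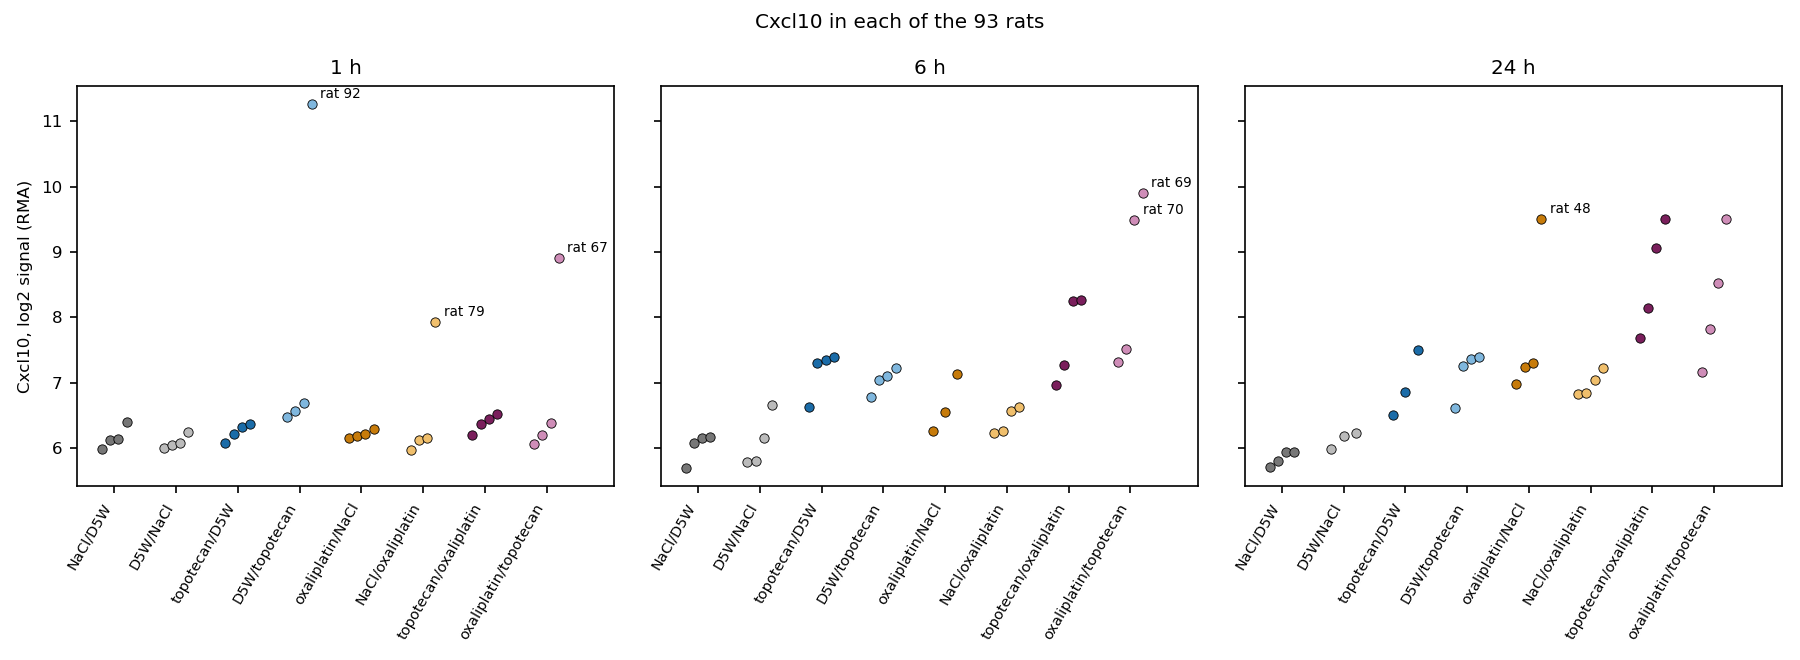
Log2 signal of Cxcl10 in each of the 93 rats at 1, 6 and 24 h, 1 point per rat, with rats 48, 67, 69, 70, 79 and 92 numbered. Rat 92 stands at 11.26 in a group whose other rats are at 6.48 to 6.70, and the combination groups rise above the vehicle groups at 6 and 24 h.

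By 6 h Cxcl10 had risen in 3 treatments. In NaCl/D5W the signals were 5.70, 6.09, 6.16 and 6.18. In topotecan/D5W they were 6.63, 7.30, 7.35 and 7.39 (1.14 ± 0.31, adjusted p = 0.0025) and in topotecan/oxaliplatin 6.96, 7.28, 8.25 and 8.27 (1.66 ± 0.31, adjusted p = 2.5e-05). Neither group overlapped its vehicle, but the share of all probe sets without overlap is not given at 1 or 6 h. D5W/NaCl rats had 5.80, 5.81, 6.15 and 6.66, and oxaliplatin/topotecan rats 7.32, 7.51, 9.48 and 9.90, the top pair being rats 70 and 69. This rise of 2.45 ± 0.69 (adjusted p = 0.00282) rested on those rats, since leaving out either one ended all 4 calls of oxaliplatin/topotecan at 6 h. NaCl/oxaliplatin, at 6.23, 6.27, 6.57 and 6.63, was above vehicle in every rat without a call (0.39, adjusted p = 0.377). At 1 h no treatment changed Cxcl10 by this test. Single high rats appeared then in NaCl/oxaliplatin (7.93, rat 79) and oxaliplatin/topotecan (8.91, rat 67), beside groupmates at 5.97 to 6.16 and 6.07 to 6.38.

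Cxcl9, another CXCR3 ligand and the dimmest of the 8, rose by less than Cxcl10 in the comparisons where it was called. It rose in 2 comparisons, both at 24 h. Topotecan/oxaliplatin rats had 6.72, 6.89, 6.93 and 7.57 against 5.75, 5.93, 6.02 and 6.05 in NaCl/D5W (1.09 ± 0.15, adjusted p = 4.76e-08). NaCl/oxaliplatin rats had 6.32 to 6.60 (0.52 ± 0.15, adjusted p = 0.00261). In oxaliplatin/topotecan, at 6.63, 6.78, 6.99 and 7.26 against 6.06, 6.12 and 6.15 in D5W/NaCl, the difference of 0.81 had an adjusted p of 0.0174. Without rat 92, whose Cxcl9 signal was 8.52, the standard error fell from 0.30 to 0.16, and the gene was then called there at 6 and 24 h.

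Of the 3 GTPases, Gbp2 is a guanylate-binding protein, and Igtp and Irgm belong to the immunity-related GTPases. In topotecan/oxaliplatin all 3 rose at 6 and at 24 h. For Gbp2 at 24 h the NaCl/D5W rats had 8.55, 8.55, 8.69 and 8.85, and the topotecan/oxaliplatin rats 10.58, 10.59, 11.13 and 11.40. The difference was 2.26 ± 0.20 (4.81-fold, adjusted p = 7.82e-13) with no overlap. Signals after topotecan/D5W were 9.42, 9.56 and 10.11 and after NaCl/oxaliplatin 9.59, 9.65, 9.70 and 9.91. Both single drugs raised it, by 1.04 ± 0.21 and 1.05 ± 0.20 (adjusted p = 0.000118 and 1.55e-05).

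Gbp2 was also the clearest gene at 6 h. Vehicle rats of NaCl/D5W had 8.61, 8.65, 8.84 and 8.88, and each rat of the 3 treatments of that order was at 9.55 or above. It rose by 1.24 ± 0.20 in topotecan/D5W (adjusted p = 1.59e-06), 0.99 ± 0.20 in NaCl/oxaliplatin (0.000236) and 1.39 ± 0.20 in topotecan/oxaliplatin (1.65e-07). In the order D5W/NaCl, at 8.75, 8.95, 9.27 and 9.32, the D5W/topotecan rats had 10.00, 10.00, 10.19 and 10.23 without overlap. That difference of 1.03 ± 0.36 was not called (adjusted p = 0.019), and was called without rat 92 (0.00282). Oxaliplatin/topotecan rats had 9.75, 9.79, 10.67 and 11.10, a rise of 1.25 ± 0.36 (adjusted p = 0.00387).

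Irgm carried the smallest adjusted p of any member. At 24 h its signals were 8.13, 8.17, 8.33 and 8.34 in NaCl/D5W and 9.58, 10.42, 10.93 and 11.07 in topotecan/oxaliplatin, a rise of 2.25 ± 0.19 (4.77-fold, adjusted p = 6.91e-13). It rose by 1.17 ± 0.21 after topotecan/D5W (9.11, 9.27 and 9.87, adjusted p = 1.79e-05) and 0.90 ± 0.19 after NaCl/oxaliplatin (8.98, 9.03, 9.23 and 9.34, adjusted p = 0.000125). Every treated rat of this order was above its vehicle. D5W/NaCl rats had 8.38, 8.51 and 8.61, and oxaliplatin/topotecan rats 9.55, 10.08, 10.26 and 10.88, a rise of 1.69 ± 0.39 (adjusted p = 0.000296). In D5W/topotecan (9.22, 9.73, 9.80 and 9.82) and oxaliplatin/NaCl (9.16, 9.21, 9.25 and 10.51) the differences of 1.14 and 1.03 were not called with all rats, and passed without rat 92 and also, with it, in 1 fit of all 8 groups. Irgm and Irf1 were the genes that rose at 1 h. For Irgm this was in topotecan/D5W (8.67, 8.84, 8.98 and 9.34 against 8.05, 8.34, 8.41 and 8.45, 0.64 ± 0.19, adjusted p = 0.00628) and topotecan/oxaliplatin (0.71 ± 0.19, adjusted p = 0.00229).

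Igtp followed the same course at a lower signal. At 24 h it was 7.37, 7.54, 7.65 and 7.70 in NaCl/D5W and 8.69, 8.94, 9.48 and 9.70 in topotecan/oxaliplatin (1.64 ± 0.19, adjusted p = 9.63e-10). NaCl/oxaliplatin raised it by 0.72 ± 0.19 (adjusted p = 0.00116), and the 0.60 of topotecan/D5W was not called (adjusted p = 0.0147). At 6 h it rose in topotecan/D5W (0.75), NaCl/oxaliplatin (0.73), topotecan/oxaliplatin (1.19) and oxaliplatin/topotecan (1.49), the last with 1 rat within the vehicle range. In oxaliplatin/topotecan at 24 h it rose by 1.36 ± 0.43 (adjusted p = 0.00572). Its other probe set gave larger differences, 2.45 in topotecan/oxaliplatin and 1.23 in topotecan/D5W at 24 h, both called.

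Irf1, the transcription factor that carries the signal to later targets, was the most widely called and among the earliest. At 1 h the NaCl/D5W rats had 9.80, 9.86, 9.94 and 10.01. Topotecan/D5W rats had 10.29, 10.38, 10.52 and 10.63 (0.55 ± 0.13, adjusted p = 0.000436) and topotecan/oxaliplatin rats 10.33, 10.38, 10.42 and 10.44 (0.49 ± 0.13, adjusted p = 0.00121). Both groups lay wholly above vehicle. In the other order the D5W/NaCl rats had 9.74, 9.80, 9.81 and 9.86, the oxaliplatin/topotecan rats 10.46, 10.54, 10.57 and 11.02 (0.84 ± 0.26, adjusted p = 0.0066), and the D5W/topotecan rats 10.53, 10.56, 10.66 and 11.90. The last value is rat 92: with it the D5W/topotecan difference was 1.11 ± 0.26 (adjusted p = 0.000601), and without it 0.78 (adjusted p = 0.0105), still with no overlap. The oxaliplatin/topotecan call was lost when any of 7 of its 8 rats was left out (D5W/NaCl 13, 14, 19 and 20, oxaliplatin/topotecan 62, 67 and 68). All 4 treatments with topotecan had Irf1 above vehicle in every rat at 1 h, where the share of all probe sets without overlap is not given. With all 8 groups in 1 fit the 1 h calls of topotecan/D5W and topotecan/oxaliplatin were lost. Oxaliplatin alone gave 0.29 as the first infusion and 0.28 as the second at 1 h, with no call, though each rat of oxaliplatin/NaCl also lay above vehicle.

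At 24 h Irf1 was called in all 6 treatments, and no other of the 8 genes was. In D5W/topotecan its call was lost when any of 6 rats was left out (D5W/NaCl 17, 18 and 24, D5W/topotecan 89, 90 and 96). The vehicle rats ran from 9.55 to 9.87 in both orders. Topotecan/D5W rats had 10.45, 10.60 and 10.68, and D5W/topotecan rats 10.57, 10.62, 10.64 and 10.70. NaCl/oxaliplatin rats had 10.66, 10.72, 10.77 and 10.87, and oxaliplatin/NaCl rats 10.61, 10.72, 11.01 and 11.33. All of these were above every vehicle rat, and their groups overlapped one another between topotecan and oxaliplatin. The combinations had the highest group means, 11.17 ± 0.20 (SD, n = 4) in topotecan/oxaliplatin and 11.19 ± 0.43 in oxaliplatin/topotecan, and did not differ beyond their spread. Rises ran from 0.86 ± 0.14 in topotecan/D5W to 1.48 ± 0.28 in oxaliplatin/topotecan, and the adjusted p was highest in D5W/topotecan, at 0.00588. At 6 h it rose in 3 treatments: topotecan/D5W (0.43), NaCl/oxaliplatin (0.53) and topotecan/oxaliplatin (0.75).

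**Figure D4:**
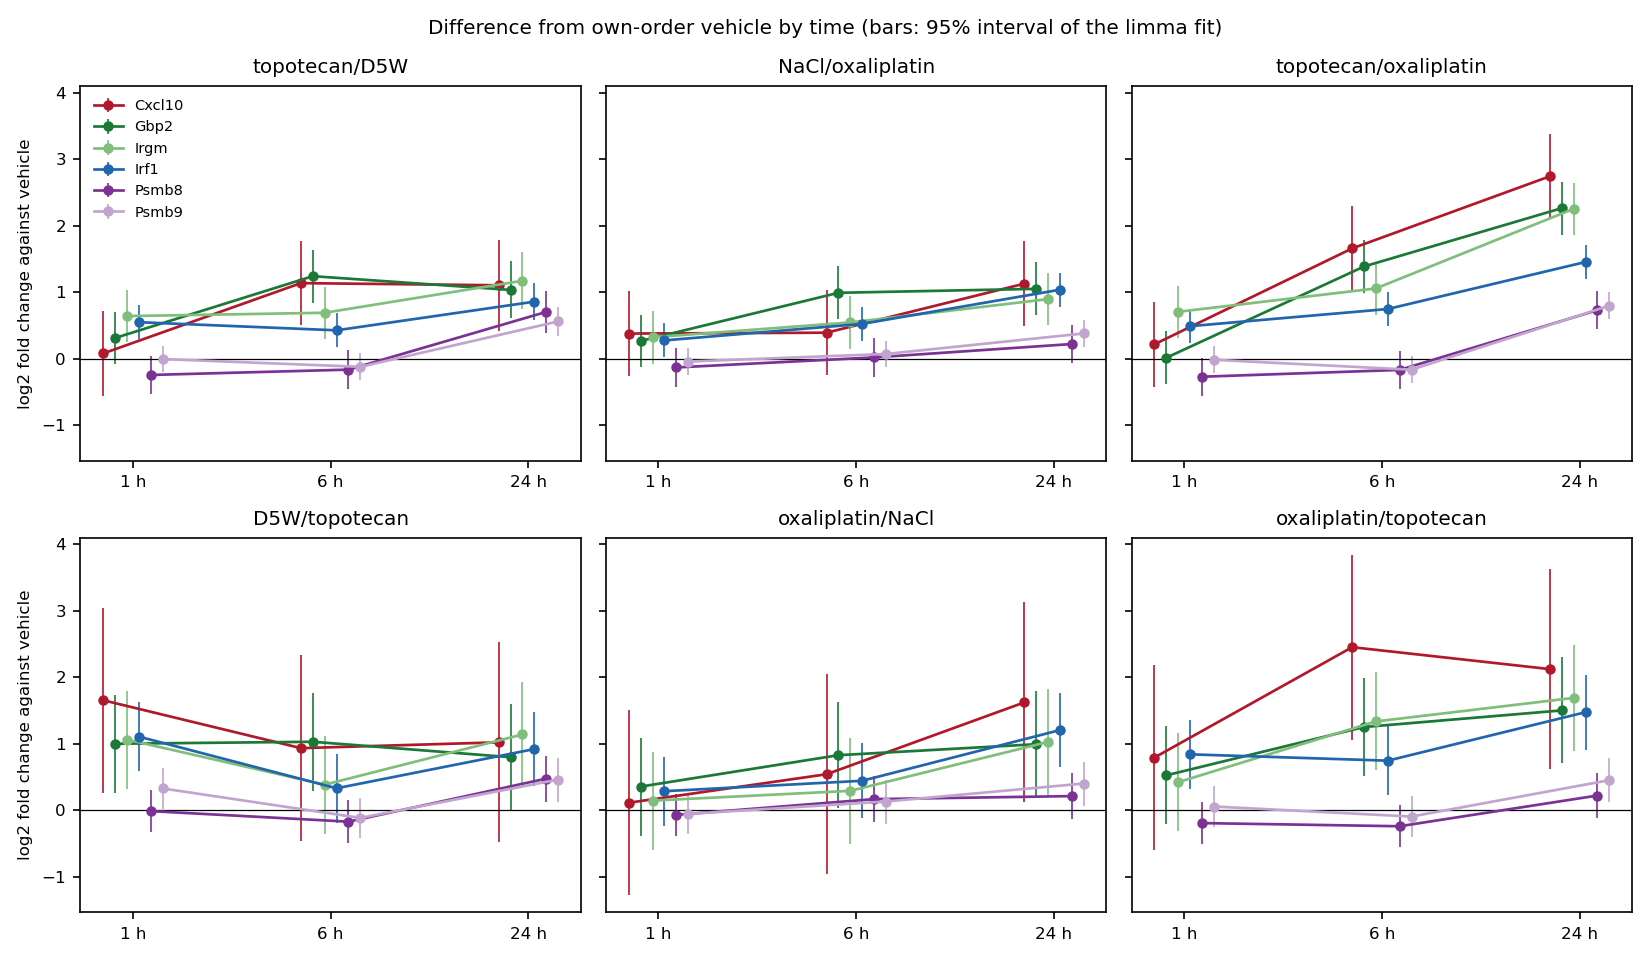
Log2 fold change against own-order vehicle at 1, 6 and 24 h for Cxcl10, Gbp2, Irgm, Irf1, Psmb8 and Psmb9 in each of the 6 treatments, with 95% intervals of the limma fit. In topotecan/oxaliplatin all 6 are highest at 24 h, while Psmb8 and Psmb9 lie near or below 0 at 1 and 6 h.

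Psmb8 and Psmb9, the immunoproteasome subunits also known as LMP7 and LMP2, were late. No call was made for either at 1 or 6 h in any treatment, and 5 of the 6 differences of Psmb8 at 1 h were between -0.27 and -0.07. At 24 h Psmb9 was 11.15, 11.16, 11.28 and 11.31 in NaCl/D5W and 11.75, 11.93, 12.08 and 12.33 in topotecan/oxaliplatin, a rise of 0.80 ± 0.10 (1.74-fold, adjusted p = 4.96e-09). It rose by 0.56 ± 0.11 in topotecan/D5W (11.71, 11.73 and 11.92, adjusted p = 4.41e-05) and by 0.38 ± 0.10 in NaCl/oxaliplatin (11.44, 11.55, 11.67 and 11.77, adjusted p = 0.000981). No rat of these 3 groups reached down to vehicle. In the other order its 3 differences at 24 h, 0.40 to 0.46, were not called with all rats and were called without rat 92, and also, with it, in 1 fit of all 8 groups.

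Psmb8 rose at 24 h only in topotecan/D5W and topotecan/oxaliplatin. NaCl/D5W rats had 11.71, 11.77, 11.99 and 12.00, topotecan/D5W rats 12.32, 12.68 and 12.72, and topotecan/oxaliplatin rats 12.38, 12.50, 12.69 and 12.82. The rises were 0.71 ± 0.15 (adjusted p = 0.000263) and 0.73 ± 0.14 (adjusted p = 2.21e-05). NaCl/oxaliplatin rats, at 11.90, 12.03, 12.07 and 12.36, overlapped vehicle, with a difference of 0.22 ± 0.14 (adjusted p = 0.167). In the order of D5W/NaCl (12.02, 12.15 and 12.24) the D5W/topotecan rats had 12.39, 12.61, 12.64 and 12.81, all higher, with a difference of 0.48 that was not called (adjusted p = 0.0193). Oxaliplatin/NaCl and oxaliplatin/topotecan overlapped vehicle, both at 0.22 ± 0.17. By group mean at 24 h the order was NaCl/D5W 11.87, NaCl/oxaliplatin 12.09, D5W/NaCl 12.14, oxaliplatin/NaCl 12.35, oxaliplatin/topotecan 12.36, topotecan/D5W 12.57, topotecan/oxaliplatin 12.60 and D5W/topotecan 12.61, with each neighbouring pair overlapping.

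The question of whether both drugs differed from 1 was put by comparing each combination with the single drug in the same place of the order. At 24 h topotecan/oxaliplatin exceeded topotecan/D5W in 6 of 8 genes, where 11.5% of probe sets were higher: Cxcl10 by 1.64 ± 0.34 (adjusted p = 0.000186), Gbp2 by 1.23 ± 0.21, Irgm by 1.08 ± 0.21, Igtp by 1.04 ± 0.20, Cxcl9 by 0.74 ± 0.16 and Irf1 by 0.60 ± 0.14. The immunoproteasome genes were the exceptions, Psmb8 with 0.03 ± 0.15 (adjusted p = 0.909) and Psmb9 with 0.24. Against NaCl/oxaliplatin 7 of 8 genes were higher (7.44% of probe sets): Cxcl10 by 1.61 ± 0.31 (adjusted p = 0.000177), Irgm by 1.36 ± 0.19, Gbp2 by 1.21 ± 0.20, Igtp by 0.92 ± 0.19, Cxcl9 by 0.57 ± 0.15, Psmb8 by 0.51 ± 0.14 (adjusted p = 0.00688) and Psmb9 by 0.42 ± 0.10. Irf1 differed by 0.42 (adjusted p = 0.0126) and was not called. With all 8 groups in 1 fit the counts were 2 in place of 6 and 3 in place of 7. The count against NaCl/oxaliplatin fell to 4 without rat 59 of topotecan/oxaliplatin or rat 78 of NaCl/oxaliplatin.

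At the earlier times, Cxcl10 at 6 h was the only gene that topotecan/oxaliplatin raised above a single drug, by 1.27 ± 0.31 over NaCl/oxaliplatin (adjusted p = 0.00215, 4.39% of probe sets higher). That call was lost without rat 52, whose muscle markers were high, or without rat 58. No gene was called against NaCl/oxaliplatin at 1 h (9.84%) or against topotecan/D5W at 1 and 6 h (0% and 0.16%). There 0, 0 and 2 genes had an unadjusted limma p under 0.05, as did 55.3%, 12.6% and 11.2% of all probe sets. The trend and robust version also gave 0 calls.

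Oxaliplatin/topotecan gave no call against its single drugs, though some groups did not overlap. At 24 h Irf1 was 10.84 to 11.81 against 10.57 to 10.70 in D5W/topotecan, and Cxcl9 6.63 to 7.26 against 6.37 to 6.60. No gene was free of overlap with oxaliplatin/NaCl at 24 h. The share of all probe sets without overlap is not given for these comparisons, so these values carry no reading. Against oxaliplatin/NaCl no gene was called at 1, 6 or 24 h, where 3.89%, 2.26% and 1.02% of probe sets were higher. Against D5W/topotecan none was called either (0.0559%, 0.303% and 1.47%). The number with an unadjusted limma p under 0.05 was 1, 4 and 0 in the first comparison, beside 43%, 35.6% and 25.5% of all probe sets. In the second it was 1, 3 and 1, beside 15.8%, 21.1% and 36%. The counts of calls stayed at 0 without rat 92 (0.128% to 4.16% of probe sets) and with trend and robust estimation. For Cxcl10 at 24 h the difference from D5W/topotecan was 1.10 ± 0.69 and that from oxaliplatin/NaCl 0.50 ± 0.69, which leaves room for differences in either direction.

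Whether the order of infusion mattered was tested as the difference between the 2 orders, each taken against its own vehicle. None of the 8 genes was called in any of 9 such contrasts by limma, with or without rat 92 and with trend and robust estimation. The share of probe sets called in either direction was 12.2% for topotecan alone at 1 h, 9.85% for the combination at 1 h, 0.00798% for the combination at 6 h and 0% in the other six. The lowest adjusted p of a member was 0.147. It belonged to Cxcl10 for topotecan alone at 1 h (first minus second infusion -1.57, 95% interval -3.11 to -0.03), which includes rat 92. For the combination at 24 h, the contrast of topotecan first minus oxaliplatin first was 0.51 for Psmb8 (0.06 to 0.95), 0.76 for Gbp2 (-0.11 to 1.64), 0.62 for Cxcl10 (-0.98 to 2.22) and -0.02 for Irf1 (-0.62 to 0.58). Only 2 differences of members had an unadjusted limma p under 0.05 in the 9 contrasts. They were Cxcl10 for topotecan alone at 1 h, where 31.8% of all probe sets reached that p, and Psmb8 for the combination at 24 h (9.5%). The other intervals do not show that the orders act alike.

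The growth of the response with time was tested, after the values had been seen, as a change of the difference from vehicle. The labels give all 24 h arrays another sample code number than the 1 and 6 h arrays, so code and time cannot be told apart. In topotecan/oxaliplatin all 8 genes were further from vehicle at 24 h than at 1 h, where 28.2% of probe sets were, with Cxcl10 adding 2.52 ± 0.44, Gbp2 2.25 ± 0.28 and Irgm 1.55 ± 0.28. Between 1 and 6 h only Cxcl10 (1.44) and Gbp2 (1.37) increased (17.4%). Between 6 and 24 h the 5 genes that increased were Psmb9 (0.96), Psmb8 (0.90), Irgm (1.20), Cxcl9 (0.83) and Irf1 (0.71), against 13.3% of probe sets. In topotecan/D5W, Psmb8 and Psmb9 were the 2 genes that increased from 1 to 24 h (0.95 and 0.56, 21.7%) and from 6 to 24 h (0.87 and 0.68, 10.2%), and Gbp2 alone from 1 to 6 h (0.93, 13.7%). In NaCl/oxaliplatin Irf1 did from 1 to 24 h (0.76, 20.8%), and no gene was called from 6 to 24 h (8.19%) or 1 to 6 h (2.11%). No gene was called in the other order from 1 to 24 h, 6 to 24 h or 1 to 6 h, where the shares of probe sets were 19.2%, 7.07% and 16.7% in D5W/topotecan, 11.2%, 1.82% and 0.391% in oxaliplatin/NaCl and 24.1%, 10.7% and 15.4% in oxaliplatin/topotecan. For these counts of 0 by limma, 3 and 2 genes had an unadjusted p under 0.05 in NaCl/oxaliplatin, and 0 to 2 in each comparison of the other order. The share of all probe sets at that p was not counted here, so these numbers are given without a reading. Without rat 92 the 24 h minus 1 h change of Cxcl9 in oxaliplatin/topotecan, 0.66, was called.

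**Figure D5:**
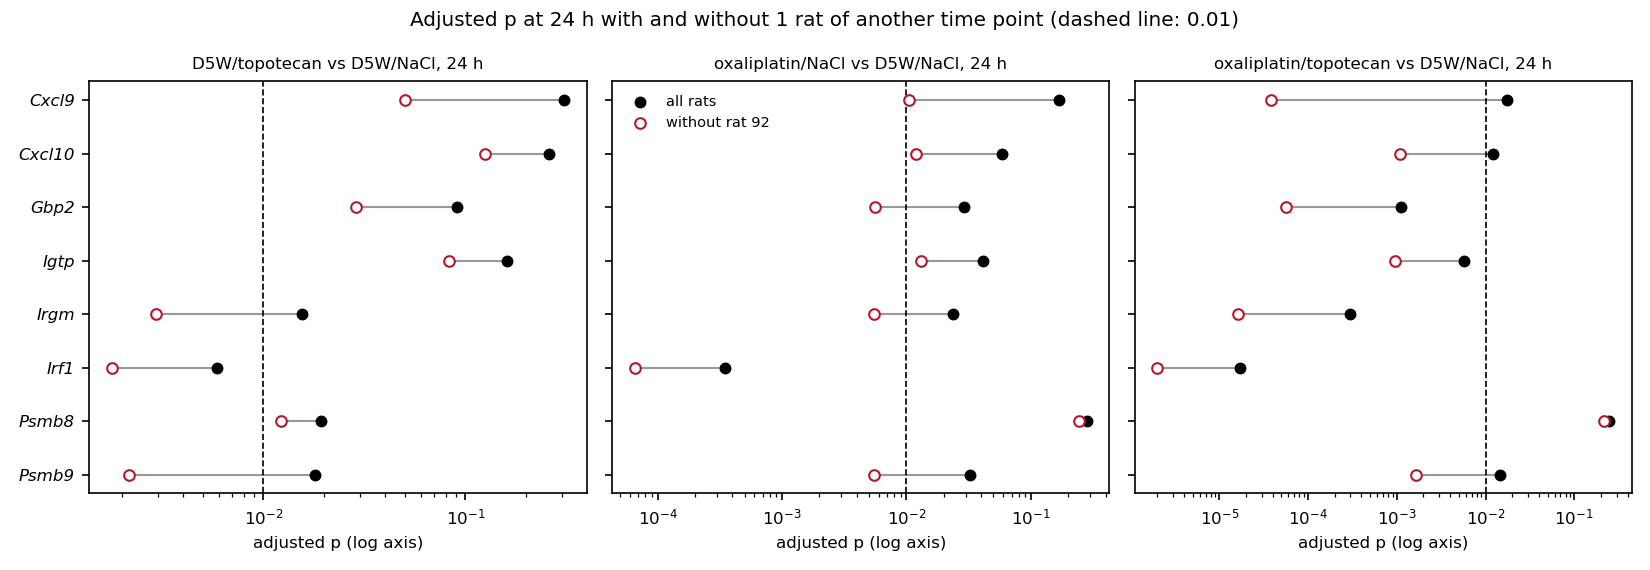
Adjusted p (log axis) of the 8 genes at 24 h in D5W/topotecan, oxaliplatin/NaCl and oxaliplatin/topotecan against D5W/NaCl, with all rats (filled) and without rat 92 of the 1 h group (open), with the threshold of 0.01 dashed. The counts of genes left of the line go from 1, 1 and 4 with all rats to 3, 4 and 7 without it.

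Other genes of the pathway were read from lists of named genes, of which those with a probe set of a single symbol are counted. The ligand gene Ifng and the feedback inhibitor Socs1 were not analysed here. Among 6 immunity GTPases, which include Gbp2, Igtp and Irgm, 5 rose at 24 h in topotecan/D5W, 4 in NaCl/oxaliplatin, all 6 in topotecan/oxaliplatin, 5 in oxaliplatin/topotecan, 1 in oxaliplatin/NaCl and 0 in D5W/topotecan, and all list counts are read beside the 16.1% to 25.9% of probe sets that rose in these comparisons. Irgm2, a relative of Irgm, rose by 2.34 in topotecan/oxaliplatin, and Gbp4 by 2.46. Of 5 chemokine and receptor genes all rose in topotecan/oxaliplatin at 24 h, Cxcl11 by 1.64, Ccl5 by 1.62 and Cxcr3, the receptor of Cxcl9 and Cxcl10, by 0.81. Cxcr3 rose in all 6 treatments at 24 h, from 0.57 in topotecan/D5W to 1.04 in oxaliplatin/topotecan.

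The immunoproteasome list of 5, with Psmb10 and the activator subunits Psme1 and Psme2 beside Psmb8 and Psmb9, rose whole at 24 h in topotecan/D5W and topotecan/oxaliplatin. In topotecan/oxaliplatin Psme2 rose by 0.90, Psmb10 by 0.83 and Psme1 by 0.44. The list gave 3 in NaCl/oxaliplatin, 1 in D5W/topotecan, 1 in oxaliplatin/topotecan and 0 in oxaliplatin/NaCl, and at 1 and 6 h none rose. The constitutive subunits that Psmb8 and Psmb10 replace, Psmb5 and Psmb7, never rose. In topotecan/D5W they fell at 1 h, Psmb7 by 0.93 and Psmb5 by 0.33, and at 6 h by 0.83 and 0.32, and at 24 h their differences were -0.02 and -0.07. In oxaliplatin/topotecan both fell at 24 h, by 0.72 and 0.31, where Psmb8 was not called.

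Of 8 class II genes, 4 to 7 rose at 24 h, and of 11 class I and peptide transport genes 4 to 7. Tap1, a subunit of the peptide transporter, rose at 1 h with Irf1 in topotecan/D5W (0.59), topotecan/oxaliplatin (0.59) and D5W/topotecan (0.91). At 1 h other members of the list of 5 transcription factors that holds Irf1 fell: Irf2, a relative that can oppose Irf1, by 0.38 to 1.33 in the 4 treatments with topotecan, Irf8 by 0.41 to 1.37 in 3 of them, and Nlrc5 by 0.63 in topotecan/oxaliplatin. The class II transactivator Ciita rose in all 6 treatments at 24 h, by 0.70 to 1.17, as did Nlrc5, the class I transactivator, at that time by 0.67 to 1.47. Irf8, which drives monocyte development, fell at 24 h in the 4 treatments with oxaliplatin, by 0.54 to 0.85. Among 17 type I antiviral genes 8 to 15 rose at 24 h, with a list median of 2.90 in topotecan/oxaliplatin beside 1.55 for the 8 genes. The cytokine gene Tnf rose at 6 and 24 h in topotecan/oxaliplatin (1.23 and 1.65), and Il18, an inducer of interferon gamma, by 2.00 at 24 h.

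The 8 genes formed unequal courses over the 24 group means, which share vehicles and the array and are given as a description with no p. Gbp2 and Igtp had a Pearson r of 0.95, Cxcl10 and Irgm 0.93, and Psmb8 and Psmb9 0.91, while Psmb8 had 0.38 with Cxcl10 and 0.57 with Cxcl9. Over all measured genes the nearest to Cxcl10 was Tnf (0.95), to Igtp Irgm2 (0.97), to Irgm Rnf114 (0.97), to Gbp2 Ecscr (0.97), to Irf1 Ppp1r3b (0.93), to Psmb9 Slc50a1 (0.96), to Psmb8 Hsd17b10 (0.93) and to Cxcl9 Rhbdf1 (0.90). Nearest to the mean of the 8 was Dhx58 (0.98), followed by Irgm2, Usp18 and Znfx1.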

How the data were processed

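Bone marrow RNA of 93 rats was measured on Affymetrix RG230 2.0 arrays, 1 per rat. The deposited values are log2 signals. The authors corrected the background, applied quantile normalization and summarised each probe set by median polish (RMA), then used the pvac filter to drop probe sets whose probes shared little variation. The authors excluded 1 outlying array, of oxaliplatin followed by vehicle at 6 h. Of 12560 deposited probe sets, 28 controls were removed and 12532 tested. Symbols came from the array's annotation (10002 probe sets with 1 symbol, 292 with several, 2238 with none). Array medians ran from 8.79 to 9.30. Arrays have no read depth, so their number limits the precision.

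Rats were grouped by the sample labels. Each label names a separate rat, so p-values measure the spread between animals. limma 3.58.1 in R 4.3.3 was fitted with default eBayes in 2 fits, NaCl/D5W with its 3 treatments and D5W/NaCl with its 3, each over 3 times, and in 1 fit of all 8 groups for the order of infusion. Benjamini-Hochberg adjustment ran over all 12532 probe sets of a comparison. The code was tested on simulated data with known changes. For the 50 calls against vehicle an exact two-sided permutation test of the rats was added: 45 had the smallest p it can give, 0.0286, and the highest was 0.0857.

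The 8 genes and all gene lists were chosen with earlier results of these data known. Genes named beside the 8 came from the pathway and marker lists, from the rule of nearest group means, or, for rat 92, were chosen after its values were seen. Alternatives covered thresholds, the samples in a fit, the prior, animal set and sample code as blocks, the vehicle group, a second quantile normalization, a filter on dim probe sets, muscle-rich arrays, other probe sets and each rat left out. The sample code block was run only for topotecan/D5W and oxaliplatin/NaCl. The fit without rat 92 and the changes between times were added after seeing the data. Promoters are from RefSeq, GRCr8, and all 8 symbols matched. No protein sequence was used here.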

Additional observations from a re-analysis of the deposited data

Results flagged for a closer look

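In groups of 4 rats, 14 of 168 combinations of gene and group (8.33%) held a rat whose gap to its nearest groupmate was wide for the range of the group by Dixon's test, where chance gives about 1 in 20, or 8.4. Rat 92 of D5W/topotecan at 1 h accounts for 4 of them, with log2 signals of 11.26 for Cxcl10, 11.09 for Irgm, 11.90 for Irf1 and 12.39 for Psmb8. Other high rats were 48 of oxaliplatin/NaCl at 24 h (Cxcl10 9.51, Irgm 10.51), 67 of oxaliplatin/topotecan at 1 h (Cxcl10 8.91), 79 of NaCl/oxaliplatin at 1 h (Cxcl10 7.93) and 14 of D5W/NaCl at 1 h (Psmb8 11.98). Low rats were 28 of topotecan/D5W at 6 h (Cxcl10 6.63), 95 of D5W/topotecan at 24 h (Cxcl10 6.61, Irgm 9.22), 51 of topotecan/oxaliplatin at 6 h (Igtp 7.93) and 79 of NaCl/oxaliplatin at 1 h (Psmb8 11.23).

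The difference from vehicle changed between times by limma in 21 cases. In topotecan/oxaliplatin from 1 to 24 h the change was 0.72 for Cxcl9, 2.52 for Cxcl10, 2.25 for Gbp2, 1.27 for Igtp, 1.55 for Irgm, 0.96 for Irf1, 1.00 for Psmb8 and 0.81 for Psmb9. From 6 to 24 h it was 0.83 for Cxcl9, 1.20 for Irgm, 0.71 for Irf1, 0.90 for Psmb8 and 0.96 for Psmb9, and from 1 to 6 h 1.44 for Cxcl10 and 1.37 for Gbp2. In topotecan/D5W it was 0.95 for Psmb8 and 0.56 for Psmb9 from 1 to 24 h, 0.87 and 0.68 from 6 to 24 h, and 0.93 for Gbp2 from 1 to 6 h. In NaCl/oxaliplatin it was 0.76 for Irf1 from 1 to 24 h.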

How the results depend on the processing

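No difference of a member changed direction in a way that reversed a call under any alternative run. Trend and robust estimation and the fit of only 4 groups for the order contrasts left every count of calls as it was. The other counts that moved by over 1.5 times are given here, and the cause was not tested except where the setting itself removes genes.

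With a threshold of 0.05, 2 genes were called for topotecan/oxaliplatin against NaCl/oxaliplatin at 6 h, 4, 1 and 4 in D5W/topotecan at 1, 6 and 24 h, 5 in oxaliplatin/NaCl and 7 in oxaliplatin/topotecan at 24 h, and 1 for oxaliplatin/topotecan against oxaliplatin/NaCl at 6 h. With a fold above 2 in addition, topotecan/D5W had 0, 2 and 3 at the 3 times, NaCl/oxaliplatin 0 at 6 h and 3 at 24 h, topotecan/oxaliplatin 0 at 1 h and 3 against NaCl/oxaliplatin at 24 h, D5W/topotecan 0 at 24 h and oxaliplatin/topotecan 0 at 1 h. With all 8 groups in 1 fit, topotecan/D5W had 0 at 1 h and 1 at 6 h, NaCl/oxaliplatin 1 at 6 h and 4 at 24 h, topotecan/oxaliplatin 0 at 1 h, 2 against topotecan/D5W at 24 h, and 0 at 6 h and 3 at 24 h against NaCl/oxaliplatin, D5W/topotecan 4, 1 and 3, oxaliplatin/NaCl 5 and oxaliplatin/topotecan 7 at 24 h. With the rats of both vehicles together, topotecan/D5W had 1 at 1 and 6 h, NaCl/oxaliplatin 0 at 6 h and 4 at 24 h, topotecan/oxaliplatin 1 at 1 h, D5W/topotecan 6, 1 and 5, oxaliplatin/NaCl 1 at 6 h and 7 at 24 h, and oxaliplatin/topotecan 8 at 24 h.

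Keeping probe sets above the lower quartile removes Cxcl9, Cxcl10 and Igtp. It left 3 calls in topotecan/D5W at 6 h, 4 in NaCl/oxaliplatin at 24 h, 3 and 5 in topotecan/oxaliplatin at 6 and 24 h, 3 against topotecan/D5W at 24 h, 0 and 4 against NaCl/oxaliplatin at 6 and 24 h, and 2 in oxaliplatin/topotecan at 6 h. A second quantile normalization gave 1 and 3 in D5W/topotecan at 6 and 24 h and 2 in oxaliplatin/NaCl at 24 h. The animal set as a block gave 2 and 1 in D5W/topotecan at 1 and 6 h, the sample code as a block 1 and 2 in oxaliplatin/NaCl at 6 and 24 h, the other probe sets 2 in D5W/topotecan at 1 h, and leaving out the muscle-rich arrays 0 for topotecan/oxaliplatin against NaCl/oxaliplatin at 6 h. The sample code was a block only for topotecan/D5W and oxaliplatin/NaCl against vehicle. At 1 and 6 h the other treatments shared no column number of the sample code with the vehicle rats. Code and treatment cannot be told apart there, nor can code and order in the order contrasts of the single drugs at 1 and 6 h.

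Leaving out 1 rat in turn gave ranges, at 1, 6 and 24 h, of 1 to 2, 3 to 5 and 5 to 6 in topotecan/D5W, 0 to 0, 2 to 3 and 6 to 7 in NaCl/oxaliplatin, 1 to 2, 5 to 5 and 8 to 8 in topotecan/oxaliplatin, 0 to 3, 0 to 1 and 0 to 3 in D5W/topotecan, and 0 to 1, 0 to 6 and 2 to 7 in oxaliplatin/topotecan. It gave 1 to 4 in oxaliplatin/NaCl at 24 h, 6 to 6 for topotecan/oxaliplatin against topotecan/D5W at 24 h, and 0 to 2 and 4 to 8 against NaCl/oxaliplatin at 6 and 24 h. All others stayed at 0. Rats that moved a count were 92 (all comparisons with D5W/NaCl noted in the report), 85, 86 and 91 in D5W/topotecan at 1 h (2, 3 and 2), 18 in oxaliplatin/topotecan at 24 h (2), 69 and 70 at 6 h (0), 2, 7, 26 and 31 in topotecan/D5W at 1 h (1), 9 and 33 at 6 h (3), 7 and 50 in topotecan/oxaliplatin at 1 h (1), 51 (2), 52 and 58 (0) in topotecan/oxaliplatin against NaCl/oxaliplatin at 6 h, 59 and 78 there at 24 h (4), and 17, 18, 24, 89, 90 and 96 in D5W/topotecan at 24 h (0). In oxaliplatin/topotecan at 1 h the only call was lost without any of 7 of the 8 rats.

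No paired analysis was possible because each animal number occurs once and no number is shared between groups. The animal set and the sample code were blocks of the kinds given above, not pairings. Fits of 3 or 4 rats a group leave wide intervals for dim and variable genes such as Cxcl10, and a difference that was not called is not shown to be absent.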

Other observations

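Beyond the 8 genes, rat 92 of D5W/topotecan at 1 h differed from the mean of its groupmates on the log2 scale by 4.39 in RT1-CE10, a class I gene, by 4.00 in Cxcl2 and 3.83 in Ccl4, chemokine genes, by 3.77 in Mx1, an antiviral GTPase, by 3.54 in Saa3, an acute phase gene, and by 3.29 in Tnf. Among the 8, the difference was 4.68 for Cxcl10 and 0.61 for Psmb8, which ranked 6 and 815 of 12532 probe sets. Its mean over the neutrophil markers was 13.51 and over the red cell precursor markers 12.29, against 12.65 to 12.77 for the latter in its groupmates.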
